A study of Mus musculus with 11 samples.

Results

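Early deposition of epitope-tagged MacroH2A2 was compared between embryonic stem (ES) cells and embryonic fibroblasts (MEFs) 3 h after induction. The comparison rests on 2 of the 11 libraries of the series, the anti-HA ChIP-seq library from ES cells and that from MEFs at 3 h, chosen by cell type and time point. Both cell types carried HA-tagged MacroH2A2 ("HA-Macro") under a doxycycline ("Dox") inducible promoter on a 129 X C57bl/6 background. The ES cells were of the KH2 line, with the transactivator at ROSA26 and the transgene near Col1a1, and feeder MEFs were depleted before induction by plating on gelatin. Per the study's methods, the MEFs came from chimeric embryos made by injecting ES cells with the same transgene into blastocysts. Host cells were selected against with puromycin, and the MEFs were induced at passage 2. Dox was given at 2 μg/mL in both. Each condition is 1 library, so no spread between replicates was measured, and intervals cover counting error only. HA-Macro libraries at 6 h and 12 h in both cell types, anti-MacroH2A2 libraries for total MacroH2A2, and 1 library from uninduced ES cells were used beside the 3 h pair. An uninduced MEF library was not analysed here.

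MacroH2A is an H2A variant with a large C-terminal macro domain. It is known for its accumulation on the inactive X chromosome and over silent chromatin, and for its greater abundance in differentiated cells than in pluripotent ones. Because Dox induces the tagged protein, the HA signal at an early time reads where the newly made variant enters chromatin, whereas the signal of an antibody to the variant itself reads its total.

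Sequences from some of the loci that led each list are shown first, as examples. The promoter sequences are the 300 bases before the annotated TSS, read 5′ to 3′ on the gene's strand from mouse build NCBIM37 (mm9), with capitals marking CG dinucleotides. Of the leading promoters higher in ES cells, those whose 300 bases held no annotated exon were considered for display, and CG content varied among them. Those of Wbp7 (chr7:31373746-31374045, minus strand) and Gnai2 (chr9:107537674-107537973, minus strand) hold 29 and 24 CG dinucleotides, whereas that of Hist1h3a, not printed, holds 3.
Wbp7: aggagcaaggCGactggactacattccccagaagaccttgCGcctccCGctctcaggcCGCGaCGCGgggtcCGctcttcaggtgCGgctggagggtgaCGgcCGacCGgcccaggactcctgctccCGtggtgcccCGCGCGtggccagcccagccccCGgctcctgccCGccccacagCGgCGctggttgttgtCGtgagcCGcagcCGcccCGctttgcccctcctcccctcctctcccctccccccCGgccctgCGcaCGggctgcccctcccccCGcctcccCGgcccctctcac
Gnai2: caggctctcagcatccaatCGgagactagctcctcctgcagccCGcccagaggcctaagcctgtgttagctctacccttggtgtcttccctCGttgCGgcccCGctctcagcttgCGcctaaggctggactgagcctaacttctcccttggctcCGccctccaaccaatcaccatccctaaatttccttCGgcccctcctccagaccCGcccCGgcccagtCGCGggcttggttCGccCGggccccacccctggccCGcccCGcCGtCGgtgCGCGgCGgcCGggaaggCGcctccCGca
Among the leading promoters higher in MEFs, that of Krt79 (chr15:101770756-101771055, minus strand) holds 4 CG dinucleotides and that of Gnl2 (chr4:124693529-124693828, plus strand) holds 5. That of 4930403N07Rik, not printed, holds 8.
Krt79: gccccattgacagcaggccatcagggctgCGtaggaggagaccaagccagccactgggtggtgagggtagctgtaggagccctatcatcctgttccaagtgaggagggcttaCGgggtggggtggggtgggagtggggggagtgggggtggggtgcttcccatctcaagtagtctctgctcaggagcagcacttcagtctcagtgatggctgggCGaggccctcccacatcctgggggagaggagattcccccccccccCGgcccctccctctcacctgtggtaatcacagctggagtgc
Gnl2: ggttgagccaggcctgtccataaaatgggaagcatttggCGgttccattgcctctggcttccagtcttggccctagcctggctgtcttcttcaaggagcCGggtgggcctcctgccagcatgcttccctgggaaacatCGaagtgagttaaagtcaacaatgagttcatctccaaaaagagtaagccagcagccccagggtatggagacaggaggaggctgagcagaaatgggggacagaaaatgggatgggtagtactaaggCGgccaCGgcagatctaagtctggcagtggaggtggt
Most distal windows that led in MEFs were tandem repeats, shown on the plus strand with capitals marking the first copy of the repeated unit. The site nearest to Slc38a4 (chr15:96765391-96765690, intergenic) repeats with a period of 26 bases over the stretch shown. That nearest to Gm13567 (chr2:60470511-60470810, intron of Itgb6) repeats with a period of 31. Each is the shortest period at which at least 80% of bases were equal. The 300 bases chosen nearest to 4930589P08Rik, not printed, reached that share at no period, although their 1 kb window counted as a tandem repeat.
Slc38a4: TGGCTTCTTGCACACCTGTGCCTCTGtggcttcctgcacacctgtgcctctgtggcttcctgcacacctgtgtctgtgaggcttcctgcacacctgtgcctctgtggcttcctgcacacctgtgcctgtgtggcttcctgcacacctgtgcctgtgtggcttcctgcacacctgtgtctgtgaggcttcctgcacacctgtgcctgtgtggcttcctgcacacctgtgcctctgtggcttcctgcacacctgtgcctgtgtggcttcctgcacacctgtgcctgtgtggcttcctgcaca
Gm13567: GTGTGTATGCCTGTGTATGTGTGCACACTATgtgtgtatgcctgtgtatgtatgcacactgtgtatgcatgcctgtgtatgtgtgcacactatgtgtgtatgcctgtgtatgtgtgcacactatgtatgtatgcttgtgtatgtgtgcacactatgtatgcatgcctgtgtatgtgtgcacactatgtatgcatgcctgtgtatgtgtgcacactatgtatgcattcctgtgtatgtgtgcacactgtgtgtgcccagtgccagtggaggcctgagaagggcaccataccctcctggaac
The distal window that led in ES cells was no tandem repeat. It lies nearest to Gm20452 (chr17:36621561-36621860, intergenic), and the capitals mark its match to the AP-1 motif TGANTCA.
Gm20452: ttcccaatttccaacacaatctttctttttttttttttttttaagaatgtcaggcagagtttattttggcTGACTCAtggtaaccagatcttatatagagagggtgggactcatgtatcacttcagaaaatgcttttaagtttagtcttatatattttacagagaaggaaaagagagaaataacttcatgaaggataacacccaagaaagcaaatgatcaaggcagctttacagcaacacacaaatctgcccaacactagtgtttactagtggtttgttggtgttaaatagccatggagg

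The deposited ES and MEF 3 h libraries held 17407301 and 11271295 mapped intervals of 150 bp. Each distinct interval was counted once, at its midpoint, on chromosomes 1 to 19. Every HA-Macro library was thinned at random to 10188067 midpoints, so that 1 midpoint is 0.0982 p.p.m. and counts compare as shares of a library. Total amounts of tagged protein in chromatin were not measured, so "higher" below means a larger share and not necessarily more protein. The study regards its apparent loss of promoter MacroH2A2 in MEFs as overestimated by such normalization, since MEFs hold more signal away from promoters. The ES 3 h library stood apart from the other HA-Macro libraries in its Y chromosome share. Of its distinct intervals 0.112% lay on the Y chromosome, against 0.0219% to 0.0244% in the ES libraries at 0, 6 and 12 h and 0.0226% in MEFs at 3 h, and between 0.0423% and 0.102% in the anti-MacroH2A2 libraries and those of HA-H3.3, a tagged H3 variant deposited at active genes. Across 23746 tiles of 100 kb, its counts followed those of HA-H3.3 at 6 h (Pearson r = 0.90, across tiles of the same genome, a description only) more than those of anti-MacroH2A2 in ES cells (r = 0.62). The ES 6 h library followed both, with r = 0.85 and 0.80, the ES 12 h library with 0.75 and 0.84, and uninduced ES cells with 0.60 and 0.56. The MEF 3 h counts followed anti-MacroH2A2 in MEFs (r = 0.90) and HA-H3.3 less (r = 0.35). Both HA-H3.3 libraries are from ES cells, so the latter value compares across cell types. Whether the ES 3 h library is as its label and processing state was not tested, and every ES 3 h value below rests on it. The counts of calls are therefore also given for the 6 h and 12 h pairs, which share no library with the 3 h pair.

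A feature is called higher in one cell type below when 3 conditions hold: both libraries together held at least 20 midpoints (100 for tiles), the ratio after adding 1 midpoint to each was past 2-fold, and the exact 95% counting interval of the ratio left out 1. Ratios are log2 of ES over MEF, so values above 0 are higher in ES cells.

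HA-Macro was concentrated at the starts of genes in ES cells at 3 h, and far less in MEFs. Over 33666 annotated TSSs the mean density within 600 bp was 7.81 midpoints per kb in ES cells against 5.12 from 4 to 2 kb upstream, a log2 enrichment of 0.61. In MEFs the same densities were 5.34 and 4.54, an enrichment of 0.23. Uninduced ES cells gave 5.21 and 4.41, an enrichment of 0.24, so the MEF peak was no higher than the background peak of ES cells before Dox. The enrichment in ES cells was 0.34 at 6 h and 0.16 at 12 h, and that in MEFs 0.19 and 0.10. Among 20789 protein-coding genes the ES profile was lopsided. It was 7.21 midpoints per kb in the 50 bp bin centred 375 bp upstream and 6.12 in that 75 bp upstream, and then rose steeply. The density within 100 bp of the TSS was 7.70. The density from 200 to 600 bp downstream of the TSS was 11.3 midpoints per kb, that from 200 to 600 bp upstream 6.97, and the highest 50 bp bin was centred 175 bp downstream at 13.3. In MEFs the corresponding densities were 6.32 and 4.68, and the highest bin was at 7.20.

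**Figure D1:**
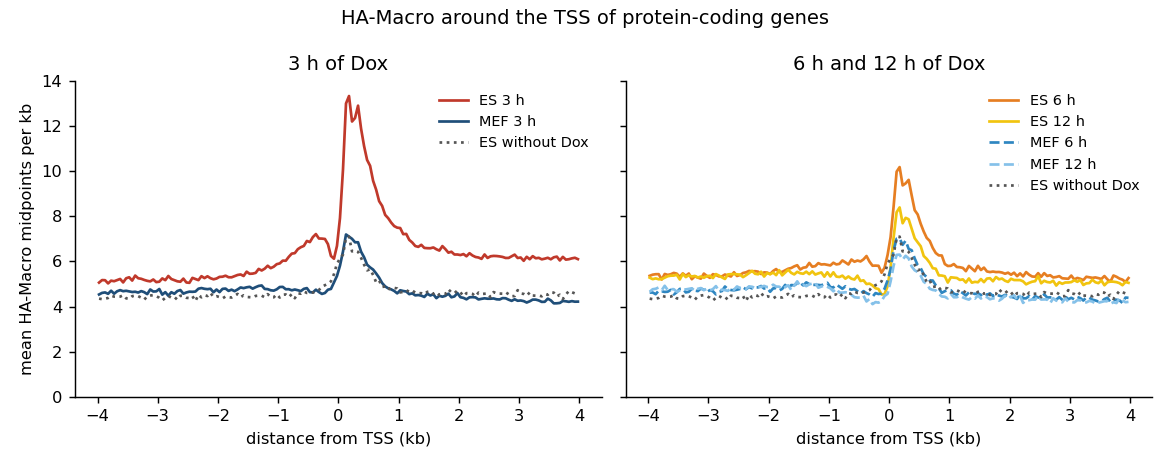
Mean HA-Macro midpoints per kb in 50 bp bins around the TSS of protein-coding genes, at 3 h (left) and at 6 h and 12 h (right), with uninduced ES cells dotted in both. The ES 3 h line reaches 13.3 midpoints per kb just downstream of the TSS while the MEF 3 h line reaches 7.20, close to the 7.10 of uninduced ES cells.

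Promoters, taken as 600 bp on each side of the TSS, were far more often higher in ES cells than in MEFs. Of 33666 promoters 9862 reached the minimum, and 5249 of these did so with at least 10 midpoints in ES cells and fewer than 10 in MEFs, so these counts describe well-covered promoters only. Among them 3806 were higher in ES cells, where the percentage called over all tested promoters was 38.6%, and 608 were higher in MEFs (6.17%). The promoters higher in ES cells held a median of 21 midpoints in ES cells, 5 in MEFs and 8 in uninduced ES cells, and 67.1% of them also stood above the uninduced library by the same 2-fold and interval rule. The promoters higher in MEFs held a median of 6 midpoints in ES cells, 21 in MEFs and 6 in uninduced ES cells, and 82.6% stood above that library. Both shares reuse the 3 h counts that chose the promoters, so they are a description only. The uninduced library is from ES cells, so for MEF calls Dox and cell type cannot be told apart. Setting the median of every bin of GC content to 0, which by construction removes the overall lead of ES promoters, left 1005 promoters higher in ES cells and 1628 higher in MEFs. With the ES 6 h library in place of the ES 3 h library against the same MEFs, 1042 of 7411 promoters were higher in ES cells and 478 in MEFs. With the ES 12 h library the balance turned, with 361 of 5790 higher in ES cells and 568 in MEFs. In the 6 h pair 14.9% of tested promoters were higher in ES cells and 5.73% in MEFs, and in the 12 h pair 8.13% and 9.15%. The median ratio over promoters tested in each pair was 0.85 at 3 h, 0.26 at 6 h and -0.11 at 12 h, and over all protein-coding promoters, tested or not, 0.65, 0.42 and 0.36.

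The protein-coding promoters whose intervals lay farthest from a ratio of 1 on the ES side included several genes used in most cells. AU022252 held 28 midpoints in ES cells and 0 in MEFs at 3 h. That is 9.33-fold with 3 midpoints put in place of the 0, and the lower interval bound was log2 2.83. AU022252 held 12 and 9 at 6 h, 5 and 6 at 12 h, and 8 without Dox. The 3 h counts chose all leading features named here and below, so a smaller gap later cannot be told apart from that selection. Wbp7, a histone H3 lysine 4 methyltransferase of the MLL family, held 39 and 1 at 3 h (log2 4.32, interval 2.72 to 10.6), 17 and 8 at 6 h, and 16 and 6 at 12 h, with 9 in uninduced ES cells. Gnai2, an inhibitory G protein alpha subunit, held 23 and 0 at 3 h, 15 and 3 at 6 h and 10 and 3 at 12 h, so ES cells stayed above MEFs in all 3 pairs. The bidirectional promoter between Abce1, an ATPase of ribosome recycling, and Anapc10, a subunit of the anaphase-promoting complex, appears under both names because the TSSs lie close together. Abce1 held 22 and 0 midpoints at 3 h, 8 and 5 at 6 h and 7 and 5 at 12 h, and Anapc10 20 and 0 at 3 h. Hist1h3a, a replication-dependent histone H3 gene, held 33 midpoints in ES cells and 1 in MEFs (log2 4.09, interval 2.47 to 10.4), then 7 and 5 at 6 h and 5 and 4 at 12 h. Klf2, a transcription factor of the pluripotency network, held 38 and 2 at 3 h (log2 3.70, interval 2.30 to 7.34), 20 and 7 at 6 h, and 12 and 9 at 12 h. Tmem59, 2400003C14Rik and Uvrag complete the leading 10, with 20 to 24 midpoints in ES cells and 0 in MEFs.

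The leading promoters on the MEF side included several genes with tissue-restricted roles. Krt79, a keratin, held 4 midpoints in ES cells and 39 in MEFs at 3 h (log2 -3.00, interval -5.23 to -1.81), 13 and 29 at 6 h, and 22 and 42 at 12 h, with 5 in uninduced ES cells. Myl3, a myosin light chain of the heart and slow muscle, held 7 and 49 at 3 h (log2 -2.64, interval -4.20 to -1.66), 9 and 23 at 6 h, and 9 and 16 at 12 h. In both genes MEFs stayed above ES cells at each time. Chrng, the fetal gamma subunit of the muscle acetylcholine receptor, held 2 and 24 at 3 h but 12 and 12 at 6 h and 17 and 15 at 12 h. Gnl2, which encodes a nucleolar GTPase, held 1 and 20 (log2 -3.39, interval -9.70 to -1.68), 7 and 8 at 6 h, and 7 and 13 at 12 h. The olfactory receptor gene Olfr432 held 1 and 19 at 3 h, 11 and 17 at 6 h, and 13 and 13 at 12 h. Camk2a, a kinase of neuronal synapses, held 5 and 38 at 3 h, 11 and 20 at 6 h, and 16 and 20 at 12 h. The other leading promoters were 1700034E13Rik, 4930403N07Rik, 4922502B01Rik and Gm6576, with 2 to 5 midpoints in ES cells and 28 to 38 in MEFs.

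CG content differed between the promoter calls. The promoters of protein-coding genes higher in ES cells held a median of 22 CG dinucleotides in the 300 bp before the TSS (quartiles 15 and 30), those higher in MEFs a median of 6 (quartiles 4 and 11), tested promoters a median of 18, and all protein-coding promoters a median of 10. Among promoters with 0 to 2 CG dinucleotides the median count was 4 midpoints in ES cells, 4 in MEFs and 5 without Dox. Among those with 22 to 68 it was 16, 7 and 8. From the poorest to the richest class the median thus rose by 12 midpoints in ES cells and by 3 in both MEFs and uninduced ES cells. The share of tested promoters higher in ES cells was 12.2% in the poorest class and 53.4% in the richest, and the share higher in MEFs 19.9% and 1.26%. In the poorest class 311 of 4530 promoters were tested, and in the richest 3091 of 4638. The shares of the poorest class thus describe few of its promoters, and its median ratio over all members was 0 at 3 h. The ES-over-MEF median in the richest class was 1.19 at 3 h, 0.79 at 6 h and 0.64 at 12 h. The letters TATAAA, searched on the gene's strand in the last 50 bases before the TSS, were found in 9.19% of promoters higher in MEFs, 1.24% of those higher in ES cells, 2.13% of tested promoters and 3.17% of all protein-coding promoters.

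**Figure D2:**
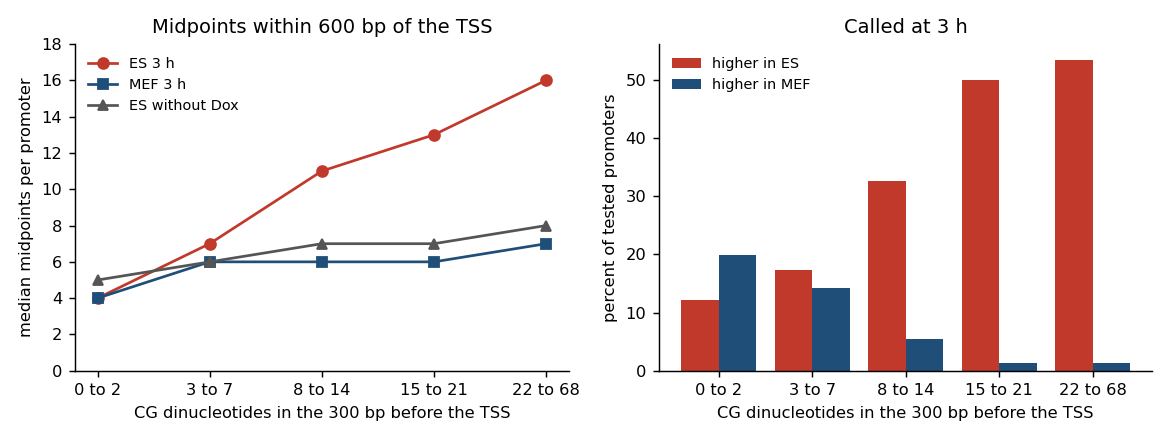
Left, median midpoints per promoter at 3 h in ES cells and MEFs and in uninduced ES cells, by the number of CG dinucleotides in the 300 bp before the TSS. Right, the percent of tested promoters in each class called higher in either cell type, with ES calls rising from 12.2% to 53.4% and MEF calls falling from 19.9% to 1.26%. In the poorest class 311 of 4530 promoters were tested, and in the richest 3091 of 4638.

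The density of HA-Macro along genes depended on how genes were averaged. With each gene given equal weight along 15403 protein-coding genes of 5 kb or more, mean density in ES cells at 3 h was 5.28 midpoints per kb from 10 to 5 kb upstream, 6.25 over parts 5 to 20 and 6.44 over parts 21 to 36 of the 40 equal parts of the gene, which leave out both ends, and 5.76 from 5 to 10 kb downstream. MEFs showed the opposite order, with 4.80 upstream and 4.16 and 4.24 in the body. The body-over-upstream ratio was 1.20 in ES cells and 0.88 in MEFs at 3 h, 1.04 in uninduced ES cells, 0.97 and 0.94 in ES cells at 6 h and 12 h, and 0.90 and 0.86 in MEFs. With midpoints and lengths pooled over genes, which gives long genes more weight, the ratio over the same parts was 0.97 in ES cells and 0.81 in MEFs at 3 h, 0.98 in uninduced ES cells, and 0.81 to 0.84 in the later libraries. Over all 40 parts the ES 3 h ratio was 1.25 with equal weights and 0.99 pooled. A body above the upstream level in ES cells at 3 h was therefore seen with equal weights and not when pooled, whereas a higher ratio in ES cells than in MEFs at 3 h was seen with both. Distal exons of 100 to 300 bases were denser within 100 bp of their centre than 1 to 2 kb away in all 7 HA-Macro libraries, by 1.29-fold in ES cells and 1.45-fold in MEFs at 3 h, and by 1.21-fold in uninduced ES cells.

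**Figure D3:**
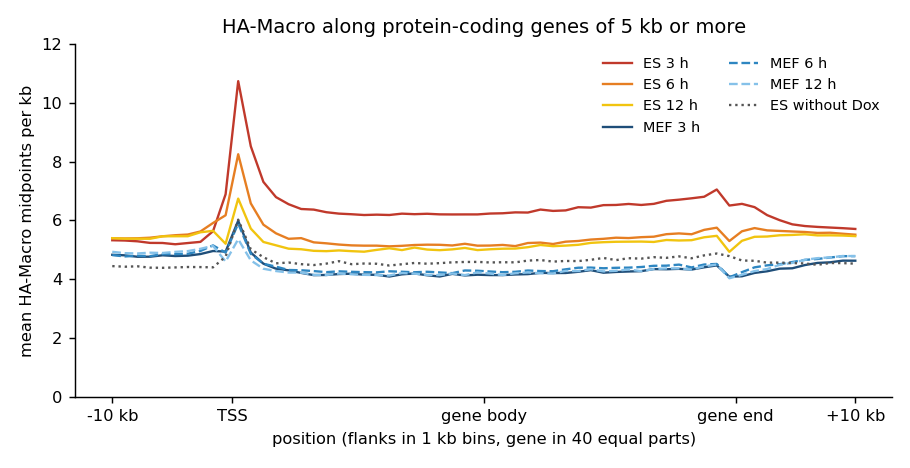
Mean HA-Macro midpoints per kb along protein-coding genes of 5 kb or more, with 10 kb flanks in 1 kb bins and the gene in 40 equal parts, for the 7 HA-Macro libraries. Each gene has equal weight. The ES 3 h line stays above 6 through the gene and is lower from 10 to 5 kb upstream, at 5.28, while the MEF 3 h line starts above its upstream level of 4.80 and averages 4.20 over parts 5 to 36.

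Gene bodies were counted from 2 kb after the TSS to the annotated end. Of 15403 bodies 15301 reached the minimum, 6049 were higher in ES cells (39.5% of those tested) and 451 in MEFs (2.95%). Bodies higher in ES cells held a median of 190 midpoints in ES cells, 67 in MEFs and 109 in uninduced ES cells. In 26.7% of them the ES count stood above the uninduced library by the same rule, and in 19.2% the MEF count stood below it. Bodies higher in MEFs held 58, 139 and 64. In 53.0% of these the MEF count stood above that library, and in 4.43% the ES count stood below it. As for promoters, these shares reuse the counts that chose the bodies and are a description only. The median ratio over tested bodies was 0.67 at 3 h, 0.40 at 6 h and 0.40 at 12 h, with 5.72% higher in ES cells and 1.13% in MEFs at 6 h, and 5.33% and 0.792% at 12 h. With medians set to 0 within bins of GC content, which removes the overall lead of ES bodies by construction, 1314 were higher in ES cells and 2615 in MEFs. Against the same MEFs the ES 6 h library gave 1378 bodies higher in ES cells and 186 in MEFs, and the ES 12 h library gave 5.43% and 0.805% of tested bodies. Where promoter and body were both tested, 80.6% of the 2689 genes with a promoter higher in ES cells also had a higher body, against 50.5% of all 6271 such genes. Of the 257 genes with a promoter higher in MEFs, 27.6% had a body higher in MEFs and 1.17% a body higher in ES cells. Among the 3081 genes with the longest bodies, from 73.6 kb, the median ratio was 0.33 and 27.1% were higher in ES cells, against 45.0% of the 3080 genes with bodies of 17.7 to 33.2 kb.

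The leading bodies in ES cells included genes of translation, respiration, transport and RNA binding. Rpl18, a protein of the large ribosomal subunit, held 49 midpoints in ES cells and 3 in MEFs at 3 h (log2 3.64, interval 2.40 to 6.36), 23 and 16 at 6 h, 26 and 19 at 12 h, and 29 in uninduced ES cells. Ndufb3, a subunit of respiratory complex I, held 67 and 7 (log2 3.09, interval 2.14 to 4.63), 32 and 14 at 6 h, and 21 and 15 at 12 h. For both genes the ES count at 6 h and 12 h was at or below that without Dox. Slc39a14, a zinc and iron transporter, held 418 and 72 at 3 h (log2 2.52, interval 2.17 to 2.92), 129 and 86 at 6 h, 105 and 75 at 12 h and 98 without Dox, so its ES signal at 3 h was more than 4 times that without Dox. Xpo7, a nuclear transport receptor, held 765 and 148 at 3 h (log2 2.36, interval 2.11 to 2.63), 266 and 158 at 6 h and 224 and 144 at 12 h. Arf4, a GTPase of Golgi traffic, held 269 and 46 (log2 2.52, interval 2.09 to 3.03), 94 and 65 at 6 h and 100 and 57 at 12 h. Zfp57, a zinc finger protein that maintains imprints, held 79 and 7 (log2 3.32, interval 2.39 to 4.86), 40 and 23 at 6 h and 33 and 31 at 12 h. Hnrnpu and Zfp770 showed 139 and 22, and 52 and 5 midpoints at 3 h. Gm4723 and Gm14444 belong to an array of similar genes on chromosome 2, where reads can be shared between copies, so their values are uncertain.

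On the MEF side all 10 leading bodies stayed above ES cells at 6 h and 12 h. Cbfa2t3, a transcriptional corepressor of blood progenitors, held 398 midpoints in ES cells and 1366 in MEFs at 3 h (log2 -1.78, interval -1.94 to -1.62), 574 and 1024 at 6 h, 604 and 1078 at 12 h, and 425 in uninduced ES cells. Adamts16, a secreted metalloprotease, held 344 and 1095 (log2 -1.67, interval -1.85 to -1.49), 325 and 1136 at 6 h, and 356 and 1126 at 12 h. Cnih3, an auxiliary subunit of AMPA glutamate receptors, held 386 and 1229 at 3 h and 478 and 1100 at 6 h. In these 3 genes the MEF count was above 1000 at all 3 times, and the ES count at 3 h lay below that of uninduced ES cells, which was 438 for Adamts16 and 431 for Cnih3. Tnfsf15, a ligand of the TNF family, held 42 and 172 at 3 h (log2 -2.01, interval -2.56 to -1.54), 44 and 186 at 6 h and 60 and 186 at 12 h. Adamtsl2, an extracellular matrix protein, held 106 and 399 at 3 h and 125 and 371 at 6 h. Epgn, an epidermal growth factor family ligand, held 8 and 46 at 3 h, 31 and 43 at 6 h and 21 and 33 at 12 h. Il2rb, Agxt, Spocd1 and 1700034E13Rik complete the leading 10, with 26 to 43 midpoints in ES cells and 109 to 170 in MEFs.

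Gene lists divided along the same line, with genes of general cell function higher in ES cells. Medians below run over all listed members outside discarded tiles, whether or not they reached the minimum, and the same median over all protein-coding genes was 0.65 for promoters and 0.67 for bodies. Of tested protein-coding genes 41.6% of promoters and 39.5% of bodies were higher in ES cells, and 4.75% and 2.95% in MEFs. Cytosolic ribosomal protein genes had a median promoter ratio of 1.58, with 36 of 75 promoters higher in ES cells and 0 in MEFs where 52 reached the minimum, and 16 of 18 bodies higher in ES cells. Rpl17 held 33 and 3 midpoints, Rpl19 37 and 4, and Rps6 31 and 5 at the promoter. The respiratory chain list had medians of 1.49 for promoters and 1.60 for bodies, and 46 of 55 bodies were higher in ES cells. At Ndufa6, a subunit of complex I, the promoter held 26 midpoints in ES cells and 1 in MEFs. Proteasome genes had medians of 1.42 and 1.41, with 35 of 40 bodies higher in ES cells, among them Psme4 with 808 and 191 and Psmb7 with 476 and 116 midpoints. Mitochondrial ribosomal protein genes had medians of 1.37 and 1.40, with 38 of 48 bodies higher in ES cells. In these 4 lists no member was called higher in MEFs at 3 h. Fewer members were called in the later pairs, as over all features, where 14.9% and 8.13% of tested promoters and 5.72% and 5.33% of tested bodies were higher in ES cells at 6 h and 12 h. Of the 75 ribosomal promoters, tested or not, 9 were higher in ES cells at 6 h and 0 at 12 h, with list medians of 1.00 and 0.74. Bodies higher in ES cells numbered 7 and 8 for respiratory chain genes, 5 and 1 for proteasome genes, and 7 and 3 for mitochondrial ribosomal protein genes, of the same 55, 40 and 48 bodies.

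Replication-dependent histone genes, which are transcribed in S phase, had 62 promoters with a median of 1.24. Of these 47 reached the minimum at 3 h, and 29 were higher in ES cells and 0 in MEFs. In the later pairs 9 and 2 of the 62 promoters, tested or not, were higher in ES cells. Over all tested promoters the shares were 14.9% and 8.13%, which is a different base. Zfp zinc finger genes, many of them repressors of transposable elements, had a median body ratio of 1.26 at 3 h. Of 304 bodies 211 were higher in ES cells and 2 in MEFs. The 2 exceptions were Zfp474, with 80 and 238 midpoints, and Zfp957, with 133 and 363. At 6 h and 12 h 31 and 29 of the 304 bodies were higher in ES cells, against 5.72% and 5.33% of all tested bodies. The actin cytoskeleton and focal adhesion list, chosen as a fibroblast function, was also higher in ES cells. Its medians were 1.32 for promoters and 1.29 for bodies, and 19 of 28 bodies were higher in ES cells, such as Actn4 with 839 and 235 midpoints. The Actb promoter held 42 and 5 (log2 2.84, interval 1.73 to 4.77), then 1.35 and 1.09 on the log2 scale at 6 h and 12 h.

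Genes of MacroH2A and H3.3 and of the chaperones that handle histones had the highest median of the lists plotted for bodies, 1.67, and 18 of 19 bodies were higher in ES cells. In the 6 h and 12 h pairs 4 and 1 of the 19 were, against 5.72% and 5.33% of all tested bodies. Supt16h, a subunit of the FACT chaperone, held 322 and 78 midpoints in its body (log2 2.03, interval 1.68 to 2.42), then 154 and 73 at 6 h and 134 and 83 at 12 h. Asf1a, an H3 and H4 chaperone, held 89 and 21, Hira, the H3.3 chaperone, 743 and 242, and Parp1, an ADP-ribose polymerase, 341 and 95. H2afy, which encodes MacroH2A1, held 593 and 265 in its body (log2 1.16, interval 0.95 to 1.38). The single body not called was that of H2afy2, the gene of MacroH2A2 itself, with 258 and 183 (log2 0.49, interval 0.22 to 0.78). Its promoter held 9 and 4, too few to test, and 320 and 194 midpoints lay in its body at 6 h.

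**Figure D4:**
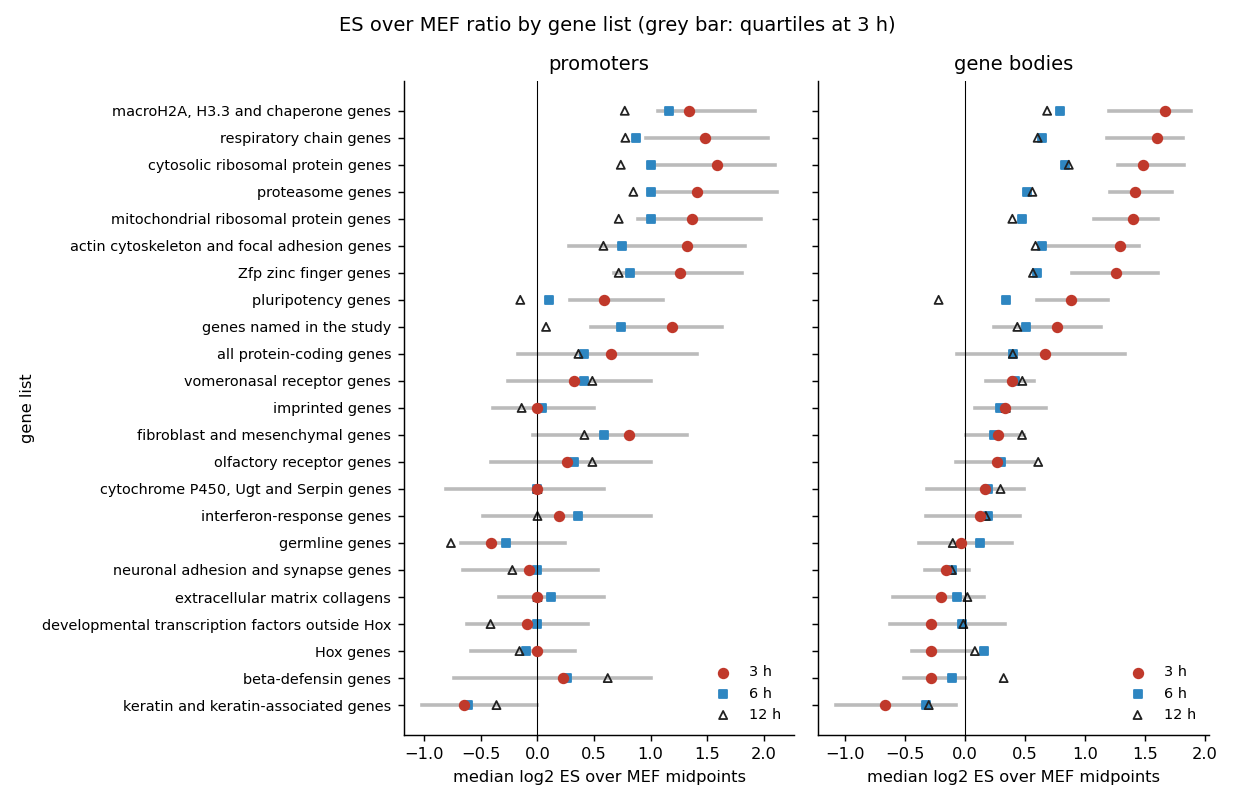
Median log2 ratio of ES over MEF midpoints for the gene lists shown, each with 10 or more bodies, at promoters (left) and gene bodies (right), with red circles for 3 h, blue squares for 6 h, open triangles for 12 h and grey bars for the quartiles at 3 h. Lists of general cell function lie above 1 at 3 h in both panels, and keratin genes lie lowest in both, at -0.65 and -0.67.

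Hox, developmental factor, synapse, collagen and germline genes had medians of 0 or below. Hox genes had medians of 0.00 at promoters and -0.28 at bodies. Of 40 promoters 17 reached the minimum, and 1 of these was called, Hoxd12 with 7 midpoints in ES cells and 19 in MEFs. That is 5.88% higher in MEFs, against 4.75% of all tested protein-coding promoters. Other developmental transcription factors had medians of -0.09 and -0.28. Of their 93 tested promoters 12 were higher in ES cells, among them Foxp4 with 43 and 6, and 6 in MEFs, among them the heart factor Nkx2-6 with 3 and 24. These are 12.9% and 6.45% of tested promoters, against 41.6% and 4.75% of all tested protein-coding promoters. Of their 84 bodies 13 were higher in ES cells and 3 in MEFs. These are 15.5% and 3.57%, against 39.5% and 2.95% of all tested bodies. Neuronal adhesion and synapse genes, which are long, had a body median of -0.16 and 0 of 37 bodies called. Collagen genes had a body median of -0.20, with 1 of 41 bodies higher in ES cells (2.44%) and 3 in MEFs (7.32%). Col15a1 held 362 and 1092 midpoints (log2 -1.59, interval -1.77 to -1.42) and Col14a1 741 and 1578, while Col10a1 held 45 and 13. Germline genes had a promoter median of -0.42, with Dazl at 5 and 19 and the synaptonemal complex gene Sycp2 at 10 and 35. Of 15 tested germline promoters 2 were higher in MEFs (13.3%) and 0 in ES cells.

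Keratin and keratin-associated genes, which build hair and skin filaments, had the lowest medians of the lists, -0.65 at 96 promoters and -0.67 at 37 bodies. Of 35 promoters that reached the minimum 15 were higher in MEFs (42.9%), and of 37 bodies 11 (29.7%). Over all tested protein-coding genes the shares higher in MEFs were 4.75% of promoters and 2.95% of bodies. The Krtap1-5 promoter held 6 and 39 midpoints (log2 -2.51, interval -4.23 to -1.45), with log2 ratios of -2.10 at 6 h and -1.83 at 12 h. One promoter went the other way, that of Krt17, with 25 and 6. The medians of the list at 6 h were -0.61 and -0.33 and at 12 h -0.36 and -0.30. Among olfactory receptor genes 12 of 1081 promoters reached the minimum, of which 5 were higher in MEFs and 1 in ES cells. Olfr433 held 6 and 35 midpoints and Olfr71 held 4 and 24. The median over all 1081 was 0.26.

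Markers of the cell types themselves were mixed. Pluripotency genes had medians of 0.58 at 33 promoters and 0.89 at 24 bodies, and 7 of 21 tested promoters and 8 of 24 bodies were higher in ES cells, 33.3% of each against 41.6% and 39.5% over all tested protein-coding genes. The bodies of Jarid2, a subunit of Polycomb complexes, and of Tet1, a 5-methylcytosine oxidase, held 1842 and 626 and 966 and 341 midpoints. The Pou5f1 promoter held 33 and 28 at 3 h (log2 0.23, interval -0.53 to 1.02), 11 and 24 at 6 h and 14 and 24 at 12 h, with 10 without Dox. Sox2 held 18 and 13, and Nanog 12 and 4 with 67 and 29 in its body. The 1 promoter of the list higher in MEFs was Dppa5a, with 4 and 23. At 12 h the list's medians were -0.15 and -0.22. Fibroblast and mesenchymal genes had medians of 0.81 at promoters and 0.28 at bodies. Of its 40 promoters 7 reached the minimum, and 3 were higher in ES cells. Of its 34 bodies 3 were higher in ES cells, 8.82%, and 0 promoters and bodies were higher in MEFs. The fibronectin gene Fn1, called in both, held 23 and 3 at its promoter and 579 and 197 in its body. The Thy1 body held 26 and 25, Col1a1 99 and 66, Lox 34 and 24, Tgfb2 294 and 289, and Col5a1 712 and 637, all within 2-fold. The ChIP measures deposition and not expression, so these markers do not check the identity of either culture.

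Among well-covered windows away from TSSs more were higher in MEFs than in ES cells. Distal windows of 1 kb lying 5 kb or more from any TSS numbered 2140009, of which 53305 reached the minimum, and of those 26886 did so with at least 10 midpoints in MEFs and fewer in ES cells, and 12871 the other way round. The median over all distal windows was 3 midpoints in each cell type, so the counts below describe the 2.49% that reached the minimum. In ES cells 5765 were higher (10.8% of those tested) and in MEFs 14629 (27.4%). The corresponding shares were 6.73% and 14.8% at 6 h and 6.06% and 12.5% at 12 h. With medians set to 0 within bins of GC content, 10022 were higher in ES cells and 6006 in MEFs, so the balance depends on that centring. The windows higher in ES cells lay inside annotated genes in 93.0% of cases and held an exon in 51.8%, those higher in MEFs in 27.9% and 7.38%, and all tested windows in 49.3% and 20.9%. The median distance to a TSS was 16.0 kb for ES windows and 36.7 kb for MEF windows.

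The 10 leading windows in MEFs, at most 1 per Mb, were mostly tandem repeats. A window was counted as one when 200 consecutive bases held at least 80% identity with the bases 10 to 100 further on. By this measure 8 of the 10 MEF windows and 0 of the 10 ES windows held a repeat. The window nearest to Slc38a4, 120387 bp from its TSS, held 5 midpoints in ES cells and 118 in MEFs at 3 h (log2 -4.31, interval -6.21 to -3.30), 11 and 98 at 6 h, 22 and 87 at 12 h, and 9 in uninduced ES cells. Its anti-MacroH2A2 signal was 2.78 p.p.m. in ES cells and 7.31 p.p.m. in MEFs. The window nearest to 4930589P08Rik held 3 and 83 at 3 h, 4 and 89 at 6 h and 16 and 50 at 12 h. That nearest to Gm13567 held 0 and 37 at 3 h, then 16 and 38 at 6 h. At 3 h this is 12.3-fold with 3 midpoints put in place of the 0, and the upper interval bound was log2 -3.25. In these 3 windows MEFs stayed above ES cells at each time, and counts without Dox were 5 to 9. Over all 2748 tested windows with a repeat the median ratio was -0.74 at 3 h, -0.08 at 6 h and 0.13 at 12 h. Tested windows without one had medians of -0.53, -0.26 and -0.26. Per the study's methods a read with several equal locations was placed at 1 of them at random, so counts at copies that match elsewhere are uncertain. Over the whole call list repeats were a minority, in 6.68% of MEF windows, 4.56% of ES windows, 5.16% of tested windows and 1.47% of every 20th distal window. Among the first 100 MEF windows by interval the share was 27.0%. The part of repeats in the calls was not tested. The 2 leading MEF windows without a repeat were an intron of Adamtsl2, with 0 and 30 midpoints, and an intergenic site nearest to Ctnnb1, with 0 and 29.

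The leading window in ES cells did not recur in the other HA-Macro libraries. The site nearest to Gm20452, 15305 bp from its TSS, held 66 midpoints in ES cells and 1 in MEFs at 3 h (log2 5.07, interval 3.52 to 11.4), but 4 and 3 at 6 h, 4 and 2 at 12 h and 1 without Dox. The site was high with anti-MacroH2A2 in both cell types, at 7.36 p.p.m. in ES cells and 3.87 p.p.m. in MEFs. With HA-H3.3 in ES cells it was also high, at 8.60 and 5.86 p.p.m. at 3 h and 6 h. These libraries also had a larger Y chromosome share than the other 6 HA-Macro libraries. The part of that property in this window was not tested. The other 9 leading ES windows held 21 to 24 midpoints in ES cells and 0 in MEFs, and 8 of them lay in a gene, among them Tln1, Mybl2, Plxnb2 and Wrap53. The window in Tln1, the gene of the focal adhesion protein talin, held 8 and 12 at 6 h and 2 and 5 at 12 h.

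Short motifs of transcription factors separated the 2 sets of windows little. The AP-1 motif TGANTCA, searched like the rest on both strands, was in 28.2% of MEF windows, 22.2% of ES windows, 25.4% of tested and 25.9% of all distal windows. The TEAD motif GGAATGT was in 13.4% of MEF windows, in 637 of the 5765 ES windows, and in 12.4% of tested and 12.6% of all distal windows. The RUNX motif TGTGGTT was in 19.9%, 19.6%, 19.9% and 20.5%. A short CTCF motif was in 8.28% of MEF windows, 9.09% of ES windows, 9.60% of tested and 4.77% of all distal windows. The octamer ATGCAAAT was in 4.66% of MEF windows, 3.38% of ES windows, 4.60% of tested and 8.35% of all distal windows. The ESRRB motif TCAAGGTCA was in 2.70%, 2.90%, 2.89% and 2.02%. The share over all distal windows moved with GC content. Among windows of 45 to 55% GC the octamer was in 4.15% of MEF, 3.63% of ES and 4.55% of all distal windows, and the CTCF motif in 8.72%, 8.84% and 7.33%. A match is a run of letters and not a bound site.

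The SD of the log2 ratio over 23746 tiles of 100 kb was 0.63 at 3 h and 0.47 in both later pairs. Counting error alone gives 0.10 at 3 h, and the rest includes any difference between single libraries. The ES and MEF counts were weakly related across tiles (r = 0.23, a description). In ES cells 1764 tiles were higher (7.43%) and in MEFs 1133 (4.77%). At 6 h the shares were 0.446% and 2.3%, and at 12 h 0.632% and 2.04%. In 6.41% of the ES tiles the ES count stood above the uninduced library by the same rule, and in 10.3% the MEF count stood below it. Of the MEF tiles 35.7% had a MEF count above that library and 0% an ES count below it. These shares reuse the counts that chose the tiles and are a description only. Gene number marked the 2 sets. Of tiles with no TSS 3.29% were higher in ES cells and 6.44% in MEFs, and of tiles with 7 or more TSSs 17.9% and 0.166%. The tiles higher in ES cells held a mean of 2.56 TSSs, those higher in MEFs 0.65 and all tested tiles 1.42. The leading ES tile held Arf4 and Pde12 on chromosome 14, with 1119 midpoints in ES cells and 266 in MEFs at 3 h (log2 2.07, interval 1.88 to 2.27), 459 and 282 at 6 h, 403 and 250 at 12 h, and 474 in uninduced ES cells. Other leading ES tiles lay in the chromatin remodeller genes Chd2, with 830 and 216, and Ino80, with 786 and 205, and in Usp34, a deubiquitinase, with 824 and 219. The leading MEF tile, chr14:23400001-23500000 with 1700112E06Rik, held 275 and 1208 at 3 h (log2 -2.13, interval -2.33 to -1.94), 312 and 1162 at 6 h and 341 and 1118 at 12 h, with 345 without Dox. In the 10 leading ES tiles the ES count at 6 h was close to that without Dox or below it, while in the 10 leading MEF tiles MEFs held 1041 to 1480 midpoints at 3 h and 970 to 1322 at 12 h. The tile over Runx1, a transcription factor of blood and mesenchyme, held 319 and 1101 at 3 h, 376 and 1019 at 6 h and 430 and 970 at 12 h. Of the other 8 leading MEF tiles 7 overlapped no protein-coding gene, and the eighth overlapped Tnfsf15.

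Adjacent called tiles joined into 1253 runs in ES cells and 685 in MEFs, of which 100 and 96 spanned 3 tiles or more, and the longest spanned 1100 kb in each. The longest ES run, chr2:176200001-177300000, is an array of zinc finger genes named Gm14431 to Gm14403. It held 4358 midpoints in ES cells and 1753 in MEFs at 3 h, 3823 and 1921 at 6 h and 3507 and 1734 at 12 h. Uninduced ES cells held 3739, and near-identical copies make its counts uncertain. The second, chr13:65300001-66000000 with Zfp369, held 4404 and 1750 at 3 h and 3454 without Dox. A run over Nipbl, the cohesin loader, and Nup155, a nucleoporin, chr15:7900001-8400000, held 3429 and 1332 at 3 h, 2138 and 1399 at 6 h and 2384 without Dox. The longest MEF run, chr14:22900001-24000000, held 3144 in ES cells and 8055 in MEFs at 3 h, 3216 and 8020 at 6 h and 3560 and 8254 at 12 h, with 3970 without Dox. The run next to the chemokine gene Cxcl12, chr6:116700001-117700000, held 3112 and 8611 at 3 h, and that over Runx1, chr16:92700001-93500000, 2880 and 7978. The run over Cxcr7, a chemokine receptor, and the collagen gene Col6a3, chr1:91900001-92700000, held 3230 and 8300. In these MEF runs the ratio at 12 h was -0.82 to -1.21 on the log2 scale, against -1.36 to -1.47 at 3 h.

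The features called at 3 h recurred in the later pairs to different degrees. Shares below are over features that also reached the minimum in the later pair, beside the share among all features tested at both times. Promoters higher in ES cells at 3 h had a median ratio of 1.74 there, 1.00 at 6 h and 0.82 at 12 h. Of those tested again 38.9% of 1613 and 29.6% of 663 were called higher in ES cells, against 16.4% and 8.58% of all, and most of the 3806 did not reach the minimum later. Promoters higher in MEFs had medians of -1.58, -0.74 and -0.77, with 33.5% of 474 and 28.7% of 487 called again, against 6.10% and 10.8%. Bodies higher in ES cells had medians of 1.45, 0.63 and 0.59, with 10.4% and 8.41% called again, against 5.71% and 5.34%. Bodies higher in MEFs had medians of -1.20, -0.70 and -0.59, with 22.2% and 14.9% called again, against 1.12% and 0.788%. Distal windows higher in ES cells had medians of 1.74, 0.58 and 0.55. Of those tested again 21.2% of 1173 and 24.3% of 875 were called higher in ES cells, against 5.33% and 5.08% of all. Most of the 5765 did not reach the minimum later. Distal windows higher in MEFs had medians of -1.77 at 3 h, -1.0 at 6 h and -0.84 at 12 h. Of those tested again 38.5% of 8717 and 31.0% of 9345 were called higher in MEFs, against 18.9% and 17.2% of all. In the later pairs 60 and 99 of the MEF windows were called higher in ES cells. Tiles higher in ES cells had medians of 1.23, 0.61 and 0.56, with 2.78% and 2.38% called again, against 0.446% and 0.632% of all tiles. Tiles higher in MEFs had medians of -1.15, -0.94 and -0.89, with 40.7% and 32.9% called again, against 2.3% and 2.04%. The 3 h medians are those that chose the features and are given as a description. The median ES count of the ES tiles was 711 midpoints at 3 h, 479 at 6 h and 428 at 12 h against 463 without Dox, while the median MEF count of the MEF tiles was 736, 721 and 745. In the anti-MacroH2A2 pair the medians were 0.41 for ES tiles and -0.51 for MEF tiles, and 1.13 for ES promoters and -0.01 for MEF promoters, where the median over all tested promoters was 0.83. Across tiles the 3 h ratio was related to the 6 h ratio (r = 0.855) and to the anti-MacroH2A2 ratio (r = 0.72), from separate libraries over the same tiles.

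**Figure D5:**
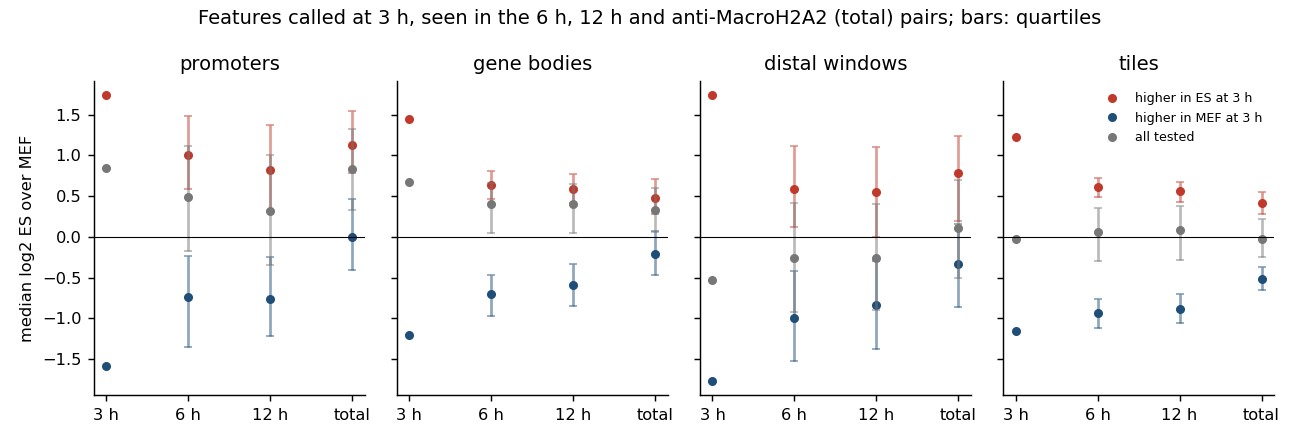
Median log2 ratio of ES over MEF at 3 h, 6 h, 12 h and with anti-MacroH2A2 (total) for features called higher in ES cells (red) or MEFs (blue) at 3 h and for all tested features (grey), with quartiles as bars at 6 h, 12 h and total. ES tiles fall from 1.23 at 3 h to 0.61 at 6 h, while MEF tiles go from -1.15 to -0.94.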

How the data were processed

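The deposited files are lists of mapped ChIP-seq intervals, 1 file per library. The authors aligned reads to the mouse genome (mm9) with Bowtie 1.0, per the submitters' processing notes, and extended them, so each HA-Macro interval is 150 bp and each anti-MacroH2A2 and HA-H3.3 interval 400 bp. Reads with several equal locations were placed at 1 of them at random, and each anti-MacroH2A2 library combines 2 replicates per the label. Genes were those of GENCODE vM1 on NCBIM37, the same build. Distinct intervals on the autosomes were counted by midpoint and thinned to 10188067 per HA-Macro library (random seed 11). The 1% of 100 kb tiles with most signal in uninduced ES cells, 249 tiles with 987 genes, were discarded. Gene bodies began 2 kb after the TSS. With 1 library per condition no test between conditions was possible. Calls used a 2-fold change and an exact 95% Clopper-Pearson interval of the ratio, which covers counting error only. The call rule was run on simulated Poisson counts. These hold counting error alone, so that run says nothing about differences between single libraries. Named features are the 10 in each direction ranked by the interval bound nearest 1, and up to 3 members per list in each direction. Named runs of tiles come from the 5 longest in each direction. All members of the chaperone list and of the study's own genes could be named. The members and gene lists were chosen with earlier results of these data known. The search for tandem repeats, the grouping by symbol stem, the pooled gene profile and the recurrence shares were chosen after values were seen. Repeats, motifs and sequences were read from the NCBIM37 genome. Python 3.11.15, numpy 2.4.6, pandas 2.3.3, scipy 1.17.1 and matplotlib 3.10.9 were used. The result of 1 gene list is not reported here.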

Additional observations from a re-analysis of the deposited data

Results flagged for a closer look

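Signal on the Y chromosome, which entered no comparison, was above the uninduced control in the ES 3 h library. Of its distinct intervals 0.1115% lay there, against 0.0244% in uninduced ES cells, 0.0219% in ES cells at 6 h and 0.0226% in MEFs at 3 h. The source of these intervals was not tested, and the comparisons above use the autosomes alone.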

How the results depend on the processing

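For the 3 h comparison alone no paired analysis was possible because each condition is 1 library. Of 113 alternative values 80 stayed within the limits set for an unchanged value and 33 moved, 28 of them among the 105 planned ones. Counts of promoters and windows moved with the minimum, and those of bodies and tiles stayed within 1.5 times. Against 9862 promoters and 53305 windows tested as reported, raising the minimum 2 times left 631 and 1482. Of these 277 promoters were higher in ES cells and 90 in MEFs, and 143 and 698 distal windows. With the minimum lowered, the counts were 5887 and 1045 of 23986 promoters and 44359 and 56547 of 638513 windows. Without thinning 5980 of 15875 promoters were higher in ES cells, and 23439 and 27345 of 143566 windows were higher in ES cells and MEFs. Promoters of 300 bp on each side gave 426 and 114 of 1306, and those of 1000 bp 7273 and 1362 of 20086. Centring within bins of GC content gave 1005 and 1628 promoters, 1314 and 2615 bodies, and 10022 and 6006 windows, which turned the balance between the cell types in all 3 classes. With protein-coding genes only, 370 of 7783 promoters were higher in MEFs, and the TSS enrichment was 0.80 in ES cells and 0.26 in MEFs. With no tile discarded the ES value was 0.59. Tiles of 1 Mb gave 11 and 12 calls and an SD of the ratio of 0.39. The following substitutions were chosen after seeing the data. With the ES 6 h library in place of that at 3 h, 1042 promoters and 1378 bodies were higher in ES cells, 186 bodies in MEFs, and 177 and 590 tiles in ES cells and MEFs. With the ES 12 h library instead, 6.23% of tested promoters and 5.43% of bodies were higher in ES cells, and 9.81% and 0.805% in MEFs. Of tiles 0.51% were then higher in ES cells and 1.74% in MEFs. The promoter balance turned with the ES 12 h library, and the tile balance with either library. Except for centring, whose construction sets each median to 0, the cause was not tested. At a median of 8 midpoints per promoter in ES cells and 5 in MEFs, depth left most promoters below the minimum.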

Other observations

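Genes grouped by the stem of their symbols, a grouping chosen after values were seen, gave 107 families of 15 or more gene bodies. The share of all tested bodies higher in ES cells was 39.5%, and of those higher in MEFs 2.95%. The 3 highest body medians were those of the Eif, Ddx and Taf stems. Bodies were higher in ES cells at 47 of 49 translation initiation factor (Eif) genes, with a median ratio of 1.61, at 27 of 32 DEAD-box helicase (Ddx) genes, with a median of 1.61, and at 17 of 17 genes of the Taf stem and 18 of 20 nucleoporin (Nup) genes. The lowest median, -0.72, was that of Serpina genes, which encode serine protease inhibitors of the liver, with 7 of 22 bodies higher in MEFs. Among Adamts metalloprotease genes 5 of 19 bodies were higher in MEFs and 0 in ES cells.

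Of tested protein-coding promoters 41.6% were higher in ES cells and 4.75% in MEFs. Interferon-response genes had medians of 0.19 at promoters and 0.12 at bodies, with 5 of 50 bodies higher in ES cells and 2 in MEFs. Genes of P450 enzymes, Ugt enzymes and serpins had 9 of 153 bodies higher in ES cells and 12 in MEFs. Imprinted genes had 2 of 15 tested promoters higher in ES cells and 1 in MEFs. Of 41 beta-defensin promoters 4 reached the minimum, and 0 were higher in ES cells and 2 in MEFs, while the median over all 41 was 0.22. Of 315 vomeronasal receptor promoters 2 reached it, and 1 was higher in ES cells and 0 in MEFs, with a median of 0.32 over all. Of 24 clustered protocadherin promoters 0 reached the minimum, and their median was 0.81. Immediate early genes had 6 of 12 tested promoters higher in ES cells and 0 in MEFs, with a median of 1.17. Among noncoding classes, lincRNA promoters had a median of 0.74, against 0.65 for coding ones, and 35.4% of 435 tested were higher in ES cells. Pseudogene promoters had a median of 0.00, with 66 and 62 of 459 tested called in ES cells and MEFs.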
